A study of Mus musculus with 12 samples.

Results

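Open chromatin of Epcam+ cells from a mouse skin tumour driven by K14CreER was compared with that of normal interfollicular epidermis (IFE), the skin between the hair follicles. The comparison uses 2 of the 6 samples of the series, chosen by their labels: K14 Epcam+ (1 sample) and IFE (1 sample), each with a single-end run and a paired-end run, so 4 of 12 runs. Of the tumour mouse's alleles, those given here are K14CreER, a Cre recombinase that the K14 promoter drives in basal keratinocytes, p53fl/fl, p53 alleles that Cre can delete, and Rosa-YFP+/+, a YFP reporter. The IFE mouse is WT, without these alleles. For both, the labels give interfollicular epidermis as the cell type, female as the gender and mixed as the strain. The sources used here do not give age, the inducing treatment or whether animals were pooled. The K14 promoter is active in basal cells of the hair follicle as well as of the epidermis, so the promoter does not by itself limit the tumour's origin to the epidermis. The sort used antibodies to CD45 (leukocytes), CD31 (endothelium), CD140a (fibroblasts) and Epcam (epithelium). Values of normal hair follicle (HF, WT, 1 sample) and of Lgr5 Epcam+ tumour cells (Lgr5CreER with the same p53fl/fl and Rosa-YFP+/+ alleles, 2 samples) are given beside the results, because neither side of the comparison uses those samples.

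In ATAC-seq the Tn5 transposase cuts where nucleosomes and other proteins leave DNA exposed, so the count over a peak is a measure of how open that region is, not of transcription. In normal epidermis, basal keratinocytes make Krt5 and Krt14, attach to the basement membrane and, on leaving it, switch to Krt1 and Krt10 and then to the proteins of the cornified layer, under transcription factors such as p63, AP-2 and GATA3. Wounded epidermis and squamous tumours instead make Krt6, Krt16 and Krt17, small proline-rich proteins, chemokines and matrix proteases, and Ras signalling acts in part through AP-1, dimers of Jun and Fos family proteins.

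Summed counts in peaks were 34040799 in IFE and 39179299 in K14 Epcam+, and the share of counts in peaks was 26.2% (single-end) and 34.0% (paired-end) in IFE and 32.8% and 38.7% in K14 Epcam+. In the K14 Epcam+ paired-end run 8.09% of pairs were not aligned, against 0.757% to 1.12% in the other 5 paired-end runs. Single-end counts of K14 Epcam+ are low from chromosome 15 on: the median log2 difference between its runs was 0.24 on chromosomes 1 to 14, -0.61 on chromosome 15 and -0.69 from 16 to Y, against 0.13 to 0.29 throughout in the 5 other samples. Runs were therefore summed on chromosomes 1 to 14, and the paired-end run was used alone from chromosome 15. Of 34 peaks on chromosome Y, 8 lie below 90 Mb, and 6 of these held at most 5 counts in each tumour. Summed over the 6, the IFE sample held 614 counts and HF 1258, while K14 Epcam+ held 9 and the other tumours 3, 11 and 9. This goes against the female label of both normal samples, and its part in the other differences was not tested. A level below is in CPM, that is per 1000000 scaled counts in peaks of chromosomes 1 to 14. A log2 ratio is K14 Epcam+ over IFE with a prior count of 2, so 1 is a 2-fold difference. With 1 sample a side there is no replicate spread and no test. Brackets hold 95% exact intervals (Clopper-Pearson), which cover counting error only, and between runs the counts varied 1.37 to 5.06 times as much, in variance, as that error alone allows. Trp53, the gene with floxed alleles, had 1 peak, chr11:69580767-69581979, with 24.5 CPM in IFE, 19.0 in K14 Epcam+, 20.5 in HF, 25.2 and 22.3 in the Lgr5 Epcam+ samples and 26.4 in the Lgr5 Epcam- sample, so it was about as open in every sample. This does not check the deletion, since the peak need not lie in the deleted part. A peak was called at a log2 ratio of 2, and a gene, whose value sums all peaks nearest to it within 50 kb, at 1. Calls on chromosomes 1 to 14 also had to show at least 0.5 (genes) or 1 (peaks) in the same direction in each run.

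K14 Epcam+ cells held 13081 peaks called higher than in IFE (7.39% of 177107 tested) and 10497 called lower (5.93%). Peaks called higher had a median of 1.87 CPM in IFE and 12.3 in the tumour, and those called lower 10.2 and 1.52. Among genes, 1694 were called higher (9.35% of 18111) and 1539 lower (8.5%; 1466 higher and 2105 lower with runs summed on every chromosome), around a median over all genes of -0.12. By chromosome, 7.24% of peaks on 1 to 14 were called higher and 5.5% lower, and 7.98% and 7.66% from 15 on, where 1 run decides. For genes the shares were 9.61% and 7.49% on 1 to 14, and 8.38% and 12.3% from 15 on. Over all chromosomes, the gene shares of 9.35% and 8.5% are the background for each count of list members below. The same rules applied to the Lgr5 Epcam+ samples, sample 1 against sample 2, called 0.601% of peaks higher and 1.03% lower, and 3.08% and 2.18% of genes. That pair is the only group with 2 samples. Called peaks were seldom at a listed transcription start: 3.01% of the higher and 2.47% of the lower, against 7.95% of all peaks. Of the higher peaks 44.9% lay inside a gene, 30.1% within 50 kb of one and 22.1% farther, against 48.9%, 26.3% and 16.9% of all peaks.

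Suprabasal and cornification genes, which build the differentiated layers of the epidermis, had the lowest median log2 ratio of the 32 lists, -0.67. Of 29 measured members, 10 were called lower, 1 higher and 18 were not called, where 8.5% of all genes were called lower. Krt77, a suprabasal keratin, had 157 CPM over 9 peaks in IFE and 18.4 in the tumour (log2 -3.08 [-3.27, -2.92]). Krt1 and Krt10 are the keratin pair of the differentiating layers. Krt1 had 102 CPM in IFE and 13.5 in the tumour (log2 -2.90). For Krt10 the IFE runs gave 113 and 120 CPM and the tumour runs 22.6 and 18.8 (log2 -2.51 [-2.63, -2.39]). The runs of a side come from 1 sample, and a call already required the same direction in each run. Dsg1a, a desmosomal cadherin of upper layers (-2.46), Casp14, the caspase of cornification (-2.11), and Klk5, a protease of skin shedding (-1.86), were also called lower. Of the late envelope genes, Lor was at 28.2 and 25.3 CPM (-0.16), Ivl at 55.4 and 42.5 (-0.38), Flg at 7.83 and 4.65 (-0.74) and Flg2 at a log2 ratio of -0.82, and none of these was called. Klk7, another shedding protease, was the member called higher (1.02). In HF, Krt1 (21.8 CPM), Krt10 (45.1) and Krt77 (47.2) were already lower than in IFE. The list's median in Lgr5 Epcam+ over HF was 0.23 in sample 1 and 0.12 in sample 2. Housekeeping genes differed between the comparisons as well, with medians of 0.40 and 0.14 there and -0.38 in K14 Epcam+ over IFE. List medians of the comparisons are therefore not on a common baseline.

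Of 18 basal keratinocyte and hemidesmosome genes, Krt15 and Sox6 were called lower and none higher, the other 16 lay between -0.59 (Dlk2) and 0.92 (Col7a1), and the median was 0.01 (-0.16 with runs summed on every chromosome). Krt14, whose promoter drives the Cre, had 162 and 162 CPM in the IFE runs and 181 and 178 in the tumour runs (log2 0.13). Krt5, its partner, had 259 CPM in IFE and 174 in the tumour (-0.57), and the hemidesmosome genes Itga6 (0.03), Itgb4 (-0.14) and Col17a1 (-0.01) differed little. Krt15, a keratin of slowly cycling basal and bulge cells, had 151 and 181 CPM in the IFE runs and 21.3 and 18.4 in the tumour runs (log2 -3.08 [-3.20, -2.96]). All 5 of its peaks were lower in the tumour and 4 were called. The deepest, chr11:100129594-100130852, 907 bp from the gene, went from 61.7 to 1.49 CPM (log2 -5.31). Krt15 was as open in HF (179 CPM) as in IFE and low in the Lgr5 Epcam+ samples (23.7 and 27.2). Sox6, a transcription factor gene with 51 peaks, was called lower (-1.05), with 9 peaks called lower and none higher.

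Among 25 transcription factor genes of the epidermis, 4 were called lower and none higher (median -0.46). Tfap2b, one of the AP-2 factors, had 251 and 265 CPM in the IFE runs and 68.9 and 57.0 in the tumour runs (log2 -2.05 [-2.12, -1.98]). Nfix, of the nuclear factor I family, was at -1.43, the nuclear receptor gene Rora at -1.28 and Gata3 at -1.25 (-0.91 once centred on its 10 Mb window, so the call was lost). Trp63, which encodes p63, summed 500 CPM over 67 peaks in IFE and 357 in the tumour (-0.48) and was not called. Klf5 (-0.41), Grhl3 (-0.56) and Tfap2a (-0.38) were not called either. In the Lgr5 Epcam+ samples over HF this list had medians of 0.38 and -0.04, where housekeeping genes had 0.40 and 0.14.

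**Figure D1:**
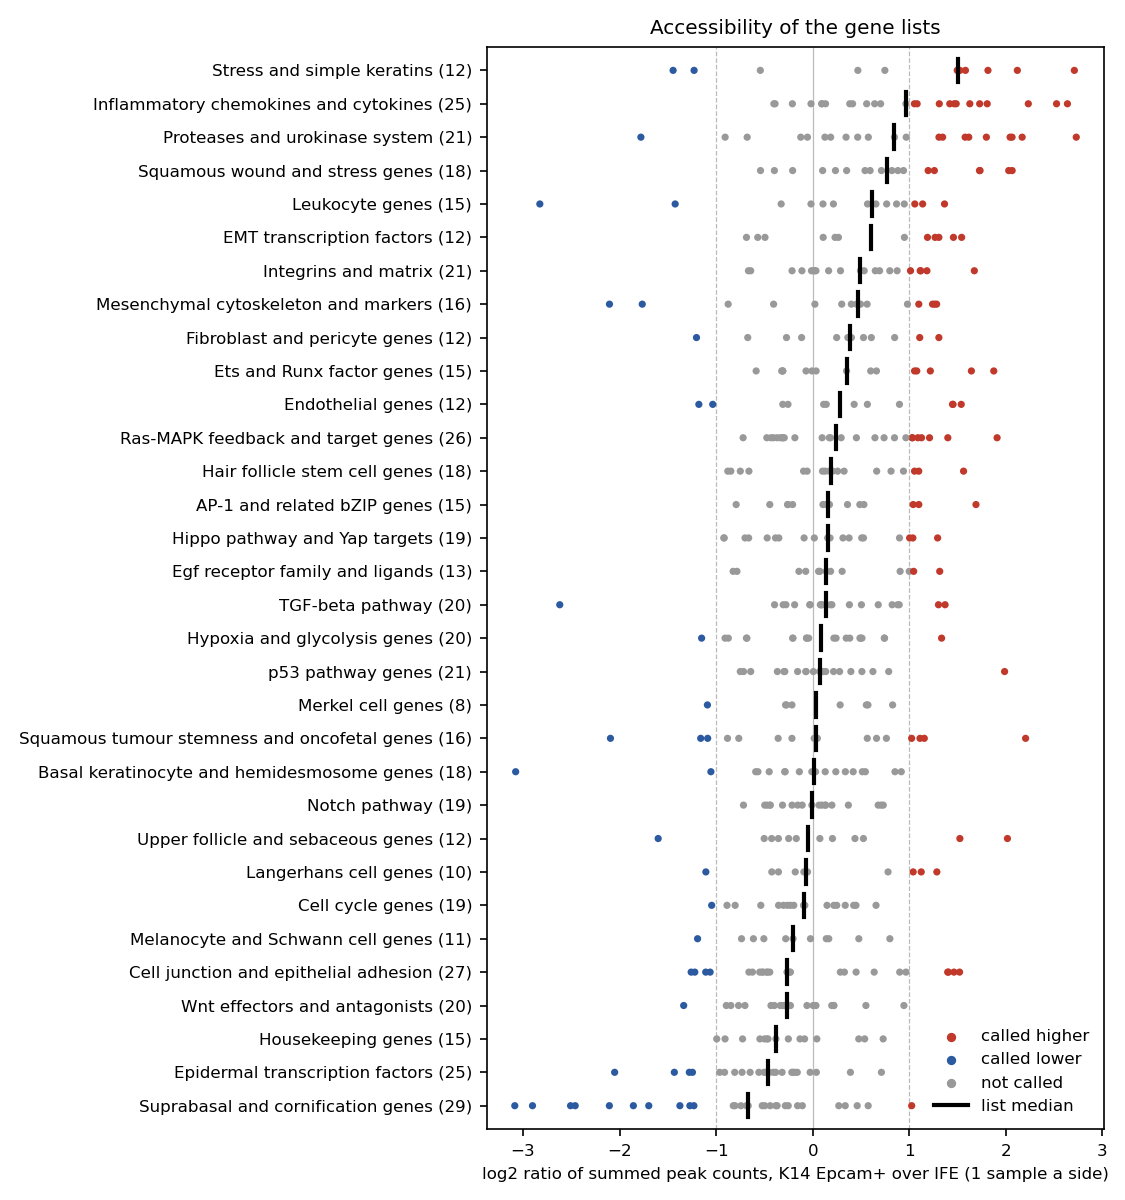
Log2 ratios (K14 Epcam+ over IFE, x axis) of every measured member of the 32 gene lists (y axis, number of measured members in brackets). Each point is 1 gene, red where called higher, blue where called lower and grey where not called. Black bars are list medians, from -0.67 for suprabasal genes at the bottom to 1.5 for stress and simple keratins at the top, and dashed lines mark the limit of 1.

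Of 12 keratin genes of wounds and of simple or internal epithelia, 7 were called higher in the tumour, 2 lower and 3 were not called, with the highest median of the lists, 1.5. From chromosome 15 on lie 8 of the 12, where the paired-end run alone decides. There 8.38% of genes were called higher and 12.3% lower. Krt18, a keratin of single-layered epithelia, had 15.1 CPM over 8 peaks in IFE and 99.4 in the tumour (log2 2.71 [2.51, 2.93]). Of its 8 peaks 4 were called higher, and the one at its start, chr15:102027871-102029010, had 2.52 CPM in IFE and 14.3 in the tumour. Its partner Krt8 had 36.9 and 62.0 CPM (0.75) and was not called. The wound keratin Krt6a had 24.7 and 108 CPM (2.12 [1.96, 2.30]), and Krt6b (1.81), Krt16 (1.58), Krt13 (1.52) and Krt17 (1.5) were also called higher. Krt6a and Krt6b are near-identical copies, so reads may have been split or lost between them. Krt4, a keratin of internal stratified epithelia (-1.45), and Krt7, of simple epithelia (-1.23), were called lower. Summed over peaks, the simple keratins Krt18 and Krt7 thus went opposite ways. The peaks of Krt7 were mixed: of 13, 1 was called lower and 0 higher, and their log2 ratios ran from -3.32 to 1.34. In Lgr5 Epcam+ over HF the list's medians were 1.57 and 1.0.

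Of 18 squamous wound and stress genes, 6 were called higher and none lower (median 0.77). Sprr1b, a small proline-rich envelope protein of stressed epidermis, had 9.08 and 7.26 CPM in the IFE runs and 35.5 and 34.2 in the tumour runs (log2 2.07). Sprr3 (2.03), the protease inhibitor Slpi (1.73), the actin bundler Fscn1 (1.73), Lcn2 (1.26) and Hmga2, a chromatin protein of embryonic and tumour cells (1.20), were the others. S100a8 (0.59), S100a9 (0.54) and Sox9 (0.94), which mark activated keratinocytes, were above IFE without being called.

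Of 25 chemokine and cytokine genes, 12 were called higher in the tumour, none lower and 13 were not called, with a median of 0.96, where 9.35% of all genes were called higher. Tnf had 3 peaks, all called higher, and 11.1 CPM in IFE against 70.0 in K14 Epcam+ (log2 2.64 [2.41, 2.90]). Cxcl2, a neutrophil attractant, had 17.9 and 16.2 CPM in the IFE runs and 94.3 and 106 in the tumour runs (2.52 [2.39, 2.67]). Its relatives Cxcl3 (2.23) and Cxcl1 (1.81), the monocyte attractant Ccl2 (1.73) and the keratinocyte alarm cytokine Il1a (1.63) were called higher too. Il1b (0.13) and Il6 (-0.40), cytokines of the same response, were not. In HF, Tnf was at 10.2 CPM and Cxcl2 at 15.4, while the Lgr5 Epcam+ samples had 100.2 and 57.6 for Tnf and 125 and 78.0 for Cxcl2. For Ccl2, HF stood above IFE, at 57.5 against 31.9 CPM, and the Lgr5 Epcam+ samples had 152 and 141 against 106 in K14 Epcam+.

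**Figure D2:**
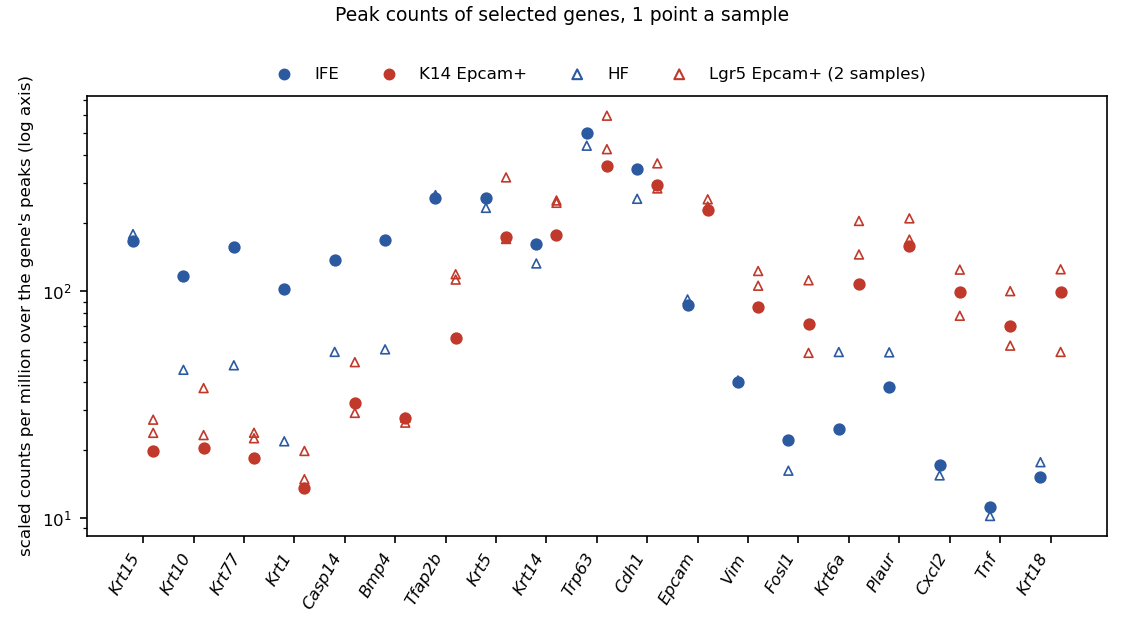
CPM summed over the peaks of 19 genes (log axis), with 1 point a sample. Filled circles are IFE (blue) and K14 Epcam+ (red), and open triangles HF (blue) and the Lgr5 Epcam+ samples (red): Krt15 is at 166 and 179 in the normal samples and 19.7 to 27.2 in the tumours, while Cdh1 lies between 256 and 367 in all 5.

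Proteases that cut matrix, and the urokinase system that activates plasmin, had 9 of 21 genes called higher and 1 lower (median 0.85). Mmp1b, a collagenase, had 4.15 and 4.53 CPM in the IFE runs and 26.1 and 33.0 in the tumour runs (log2 2.73 [2.47, 3.03]). Plaur, the urokinase receptor, had 39.5 and 35.8 CPM in the IFE runs against 158 and 162 in the tumour runs (2.06). Mmp10, stromelysin-2, had 24.6 and 17.8 against 87.5 and 90.0 (2.04). Timp1, a metalloprotease inhibitor on chromosome X (2.17), and Mmp1a (1.80) were also called higher. Mmp1a and Mmp1b are near-identical copies, with the same limit as the Krt6 pair. Mmp7, matrilysin, was called lower, from 31.9 to 9.25 CPM (-1.78).

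At transcription starts, RefSeq (GRCm38.p6) gave windows of 300 bases for 384 of the 549 list genes measured. The peak over the start was called higher in 29 of them and lower in 8. Of all 32851 such windows, 451 lay at peaks called higher, 277 at peaks called lower and 15034 at no peak. The AP-1 motif TGANTCA, a palindrome and so the same on both strands, was in the window of 7 of the 29 and 0 of the 8. Below are the 250 bases before the start of 4 genes whose start peak was called higher and of 2 where it was called lower, shown because they carry the contrast in this motif. They run 5′ to 3′ on the gene's strand, with TGANTCA in capitals.
Mmp1b: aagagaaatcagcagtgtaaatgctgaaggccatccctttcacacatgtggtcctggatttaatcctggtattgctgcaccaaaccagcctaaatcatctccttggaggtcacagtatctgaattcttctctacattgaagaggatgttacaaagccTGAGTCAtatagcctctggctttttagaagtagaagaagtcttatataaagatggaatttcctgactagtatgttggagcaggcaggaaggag
Mmp10: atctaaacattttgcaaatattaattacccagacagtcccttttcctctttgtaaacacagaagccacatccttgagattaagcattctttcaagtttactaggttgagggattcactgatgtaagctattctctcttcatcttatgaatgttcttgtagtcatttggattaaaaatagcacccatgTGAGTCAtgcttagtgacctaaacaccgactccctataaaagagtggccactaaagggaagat
Plaur: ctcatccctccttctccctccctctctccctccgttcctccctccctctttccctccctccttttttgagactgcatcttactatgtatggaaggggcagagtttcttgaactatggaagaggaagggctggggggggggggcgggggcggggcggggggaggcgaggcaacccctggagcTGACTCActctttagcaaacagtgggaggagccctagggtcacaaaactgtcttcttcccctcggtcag
Sprr1b: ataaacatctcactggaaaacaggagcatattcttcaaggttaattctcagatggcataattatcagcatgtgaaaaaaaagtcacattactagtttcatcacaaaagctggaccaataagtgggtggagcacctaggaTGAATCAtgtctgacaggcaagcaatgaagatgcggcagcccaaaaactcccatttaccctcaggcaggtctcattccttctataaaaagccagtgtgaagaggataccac
Krt10: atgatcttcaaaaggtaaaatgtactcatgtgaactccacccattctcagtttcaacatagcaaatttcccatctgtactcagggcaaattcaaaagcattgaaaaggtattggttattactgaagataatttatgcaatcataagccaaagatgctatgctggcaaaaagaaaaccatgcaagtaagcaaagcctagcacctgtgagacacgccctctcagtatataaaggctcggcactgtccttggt
Casp14: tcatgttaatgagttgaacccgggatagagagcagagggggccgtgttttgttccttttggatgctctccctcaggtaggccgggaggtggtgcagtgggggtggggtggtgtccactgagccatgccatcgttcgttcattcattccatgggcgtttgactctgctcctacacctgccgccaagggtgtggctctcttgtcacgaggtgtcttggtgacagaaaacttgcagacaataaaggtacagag
The stretch of Mmp1b is chr9:7388027-7388276 on the minus strand. Its motif lies 93 bases before the start, and the peak over it had 2.65 and 3.23 CPM in the IFE runs and 23.3 and 30.3 in the tumour runs (log2 3.14 [2.84, 3.51]). That of Mmp10 is chr9:7502092-7502341 on the plus strand, with the motif at 63 bases, and its peak went from 4.27 to 20.1 CPM (2.22). That of Plaur is chr7:24462233-24462482 on the plus strand, with the motif at 69 bases, and its peak went from 8.23 to 51.3 CPM (2.63). That of Sprr1b is chr3:92438780-92439029 on the minus strand, with the motif at 111 bases, and its peak went from 1.58 to 11.4 CPM (2.80). Of the stretches without the motif, Krt10 is chr11:99389365-99389614 on the minus strand, with a peak at 15.1 CPM in IFE and 1.26 in the tumour (-3.52). Casp14 is chr10:78718294-78718543 on the minus strand, with a peak at 75.5 and 7.02 CPM (-3.41). The other list genes with the motif at a higher start peak were Zeb2, Il1a and F3, with Zeb2 and F3 holding 2 copies each.

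Over all 32851 RefSeq start windows of 300 bases, TGANTCA was in 27.9% of the 451 at peaks called higher, 6.14% of the 277 at peaks called lower, 6.64% of those at peaks not called, 8.55% of those with no peak and 7.81% of all. Among windows at higher peaks it was in 32.1% of the 221 whose peak was also called higher in both Lgr5 Epcam+ samples over HF and in 23.9% of the other 230. TGTGGT, the core that Runx factors bind, was in 25.1% of windows at higher and 18.4% at lower peaks. It was in 13.2% at peaks not called, 20.5% with no peak and 16.8% of all. The GC box GGGCGG was in 28.6% of windows at higher and 20.2% at lower peaks, 58.0% at peaks not called, 10.8% with no peak and 35.7% of all. For TATAAA these shares were 17.7%, 9.75%, 7.73%, 20.3% and 13.6%. The shares of TEAD (ACATTCC), 4.88% and 3.61%, and E-box (CACCTG), 23.3% and 23.5%, differed little between higher and lower. The cAMP response element TGACGTCA was in 1.77% and 0%, against 1.79% of all. Motifs were sought on both strands with any overlap allowed. A match is a description of the letters, and most called peaks lie away from starts, where no sequence was used here.

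**Figure D3:**
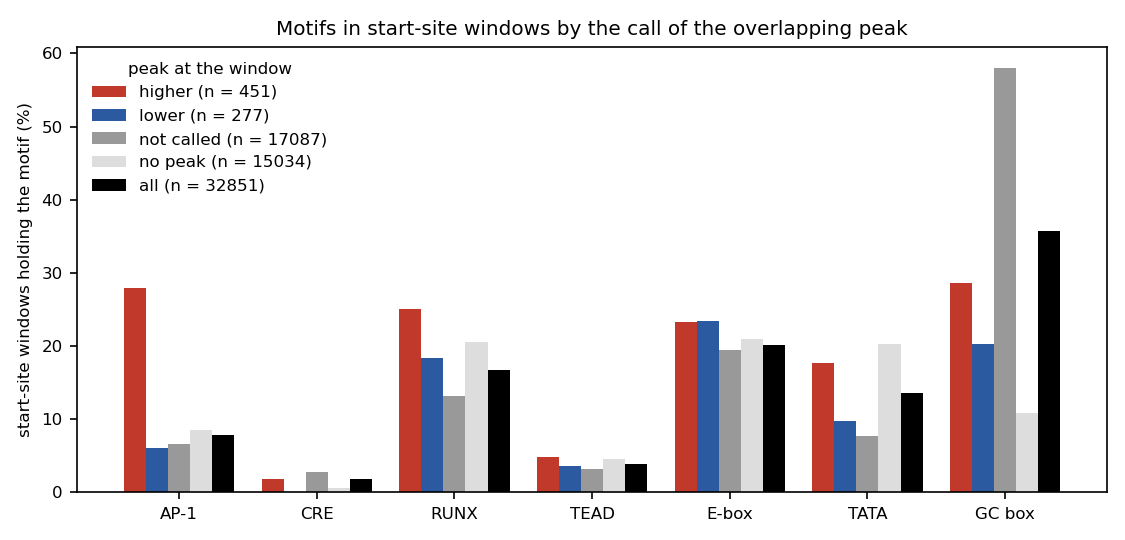
Share of 300-base start-site windows (y axis, %) that hold each of 7 motifs (x axis), by the call of the peak over the window. Bars start at 0, and n is the number of windows. AP-1 stands at 27.9% of windows at peaks called higher against 6.14% at peaks called lower, and the GC box at 58.0% of windows at peaks not called.

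Of 15 AP-1 and related bZIP genes, 3 were called higher and none lower (median 0.16), where 9.35% and 8.5% of all genes were. Fosl1, which encodes Fra-1, had 22.1 CPM over 4 peaks in IFE and 71.7 in the tumour (log2 1.69 [1.51, 1.88]). One peak of it, chr19:5444523-5445771, 1927 bp from the gene, went from 0.72 to 21.1 CPM (4.64 [3.98, 5.95]), with 36.1 and 14.5 in the Lgr5 Epcam+ samples and 1.53 in HF. Batf (1.10, 0.69 with peaks within 10 kb alone) and Batf3 (1.04, 0.79 centred on its window) were called, while Fos (-0.21), Jun (0.14), Junb (-0.26) and Fosl2 (-0.44) were not. Fos, with 397 CPM over 26 peaks in IFE and 344 in the tumour, was open in both.

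Of 15 Ets and Runx factor genes, 5 were called higher and none lower (median 0.35). Elk3, an Ets factor that Ras signalling phosphorylates, had 117 and 92.4 CPM in the IFE runs and 384 and 394 in the tumour runs (log2 1.87 [1.82, 1.93]). Runx3 (1.22), Runx2 (1.08) and Runx1 (1.05) were also called, although peaks within 10 kb gave Runx3 0.07, and summed runs gave Runx1 0.54 and Runx2 0.59. At the start of Runx1 a peak went from 1.37 to 17.3 CPM (3.54). Etv6 is taken up with its chromosome below.

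Feedback inhibitors and targets of the Ras-MAPK cascade were called higher in 7 of 26 genes and lower in none (median 0.24). Over all genes, 9.35% were called higher and 8.5% lower. Phlda1, a target of the pathway, had 74.1 and 66.8 CPM in the IFE runs and 263 and 274 in the tumour runs (log2 1.91 [1.84, 1.98]). Spred3, an inhibitor of Raf activation (1.40), Etv1, an Ets factor (1.21), and the phosphatase gene Dusp4 (1.13, 0.81 centred on its window) followed. Myc (-0.31), Ccnd1 (-0.41), Etv5 (-0.29) and Spry2 (0.64) were not called. Of 13 genes of the Egf receptor family and its ligands, the ligand genes Ereg (1.32) and Nrg1 (1.05, 0.72 centred) were called higher and none lower (median 0.14), and the receptor gene Egfr had 400 CPM in IFE and 380 in the tumour (-0.07).

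On the last part of chromosome 6 peaks were shifted together. The 10 Mb windows from 120 to 150 Mb had median log2 ratios of 0.64, 0.80 and 0.81 over all their peaks, the only windows above 0.5 of 263 with at least 100 peaks. The low-level peaks of those windows had medians of 0.69, 0.77 and 0.65, and the same windows had -0.24 to 0.20 in the Lgr5 Epcam+ samples over HF. Etv6, a repressor of the Ets family (1.64, 0.84 centred), and Tead4, a partner of Yap (1.29, 0.65 centred), lost their calls on centring. Not every gene there followed the shift. Foxm1 was at -0.36, while Cdkn1b (0.22) and Ccnd2 (0.34) were higher but under their window medians of 0.80 and 0.64. The cause of the shift was not tested. Of 8 windows below -0.5, the lowest was on chromosome X at -0.74, where the Lgr5 Epcam+ samples over HF were at -0.75 and -0.68.

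**Figure D4:**
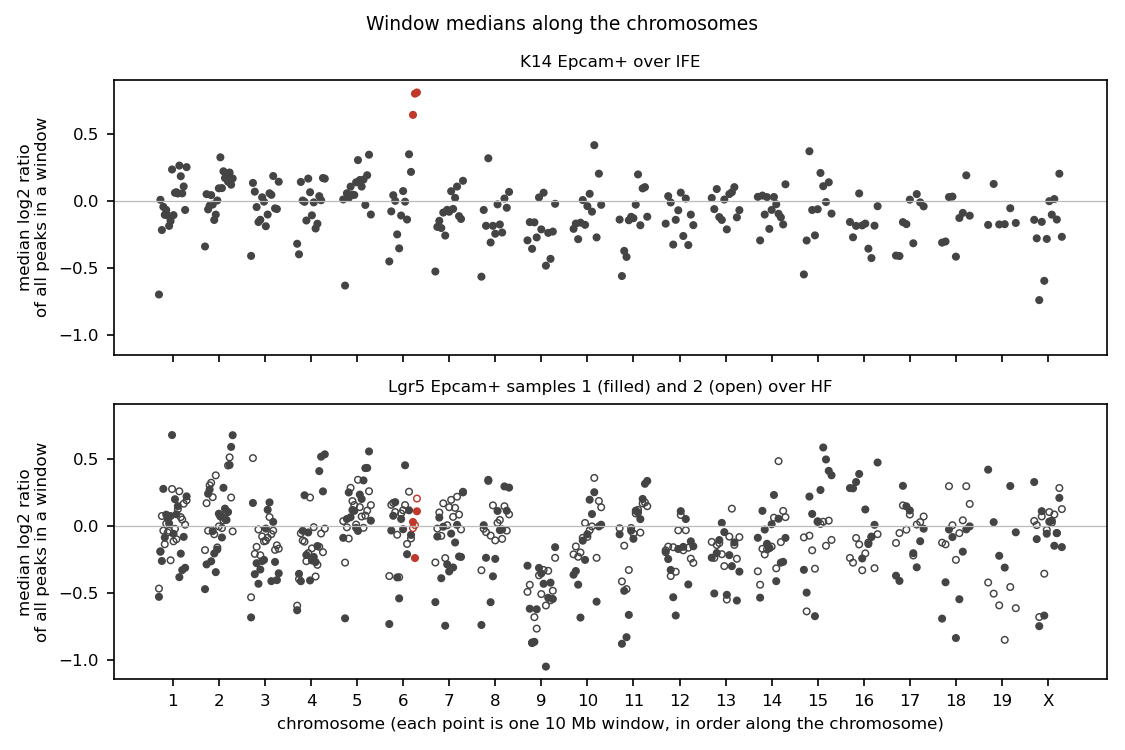
Median log2 ratio of all peaks in each 10 Mb window with at least 100 peaks (y axis), by chromosome (x axis, windows in order), for K14 Epcam+ over IFE (top) and the Lgr5 Epcam+ samples over HF (bottom, sample 1 filled, sample 2 open). The 3 red windows at the end of chromosome 6 stand at 0.64, 0.80 and 0.81 at the top and between -0.24 and 0.20 at the bottom.

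Genes of the p53 pathway showed 1 call in 21, with a median of 0.07 (-0.03 centred on windows). Cdkn2a, the tumour suppressor locus of p16 and p19Arf, had 45.9 and 35.4 CPM in the IFE runs and 158 and 169 in the tumour runs (log2 1.99 [1.90, 2.08]), with 260 and 160 CPM in the Lgr5 Epcam+ samples and 36.9 in HF. The p53 targets Cdkn1a (-0.29) and Mdm2 (0.22) were not called. Of 19 cell cycle genes, Ccnb1, which encodes cyclin B1, was called lower (-1.05, -0.93 centred) and none higher (median -0.09). Beside both lists, 9.35% of all genes were called higher and 8.5% lower.

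Of 12 genes for factors of epithelial to mesenchymal transition (EMT), 5 were called higher and none lower (median 0.61). Zeb2, a repressor of E-cadherin, had 58.7 and 45.8 CPM in the IFE runs and 162 and 146 in the tumour runs (log2 1.54 [1.46, 1.63]). Prrx1 (1.46), Twist2 (1.31), Twist1 (1.27) and Snai1 (1.19, 0.97 centred) were called too. Zeb1 (0.95) and Snai2 (-0.69), which basal keratinocytes make, were not. Of 16 mesenchymal genes, 4 were called higher and 2 lower (median 0.47). Vim, which encodes vimentin, had 44.3 and 34.8 CPM in the IFE runs against 89.0 and 82.8 in the tumour runs (1.10), and the peak at its start went from 7.44 to 30.5 CPM (2.03). Cdh2, N-cadherin (1.28, 0.71 with summed runs), the tropomyosin gene Tpm1 (1.26) and Pdpn, podoplanin (1.24), were also called. Fap (-2.10) and Thy1 (-1.77), surface markers of fibroblasts, were called lower.

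Cell junction genes went both ways. Of 27, 4 were called higher and 4 lower (median -0.26), where 9.35% of all genes were called higher and 8.5% lower. Cdh1, E-cadherin, had 345 CPM over 28 peaks in IFE and 293 in the tumour (log2 -0.24). Epcam, the sorting marker, had 87.1 and 230 CPM (1.40, 0.84 with summed runs), with 255 and 237 in the Lgr5 Epcam+ samples and 92.2 in HF. As cells were sorted on this protein, that is no finding. Tight junction genes split: Cldn7 (1.52) and Cldn4 (1.46), common in simple epithelia, were called higher. Cldn1 (-1.26), the barrier claudin of epidermis, and Cldn8, another claudin gene (-1.11, -0.93 centred), were called lower. The desmosomal cadherin gene Dsc2 (1.41, 0.92 with summed runs) was higher, and Perp, a desmosome protein and p63 target (-1.22), was lower.

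Of 21 integrin and matrix genes, 5 were called higher and none lower (median 0.49). Spp1, osteopontin, had 28.2 and 21.4 CPM in the IFE runs against 84.1 and 76.5 in the tumour runs (log2 1.67, 0.91 with peaks within 10 kb). Itga5, the fibronectin receptor chain (1.18, 0.66 with summed runs), the matrix genes Fbn1 (1.12, 0.89 centred) and Vcan (1.11), and Itgb3 (1.01, 0.92 centred) were the others. In the TGF-beta pathway 2 of 20 genes were called higher and 1 lower (median 0.14). These counts are near the shares of all genes, 9.35% and 8.5%. Ltbp1, which binds latent TGF-beta (1.37, 0.76 with summed runs), and the inhibitor Smad7 (1.30, 0.82 with summed runs) were higher. Bmp4, a ligand of the same superfamily, had 164 and 174 CPM in the IFE runs and 30.6 and 25.0 in the tumour runs (-2.62 [-2.72, -2.52]). In HF it had 55.5 CPM, and the Lgr5 Epcam+ samples had 27.7 and 26.3.

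Of 19 Hippo pathway and Yap target genes, Tead4, Tead2 (1.04) and F3, tissue factor (1.0), were called higher and none lower (median 0.15). Tead2 rests on 1 peak at 2.34 and 4.86 CPM and was at 0.83 with loess scaling, and F3 fell under the limit with DESeq2 size factors (0.98). No gene of the 19 in the Notch pathway was called, with a median of -0.01 (0.03 with loess scaling). Of 20 Wnt effectors and antagonists only the ligand gene Wnt3 was called, lower, from 95.3 to 37.7 CPM (-1.34, list median -0.27). Of 20 hypoxia and glycolysis genes, Vegfa was called higher (1.33, 0.76 with summed runs) and the collagen hydroxylase gene P4ha1 lower (-1.15, -0.98 centred). Their median was 0.09 (-0.04 with summed runs). Beside the lists of this paragraph, 9.35% of all genes were called higher and 8.5% lower.

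Of 16 genes linked to squamous tumour stemness or fetal expression, 4 were called higher and 3 lower (median 0.03, -0.18 with loess scaling). Lin28b, an RNA-binding inhibitor of let-7 maturation, had 17.4 and 14.5 CPM in the IFE runs and 75.2 and 73.8 in the tumour runs (log2 2.20 [2.06, 2.36]). The hyaluronan receptor gene Cd44 (1.16, 0.83 centred) and Nrp2 (1.11) were called higher too. Hoxa9 (-2.09), Aldh3a1 (-1.16) and Igf2bp3 (-1.09, -0.84 centred) were lower, and Sox2, a factor of squamous tumours, was at 29.0 and 24.9 CPM (-0.21).

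Among genes of hair follicle stem cells, Lgr5 summed 54.7 CPM in IFE and 215 in HF, and Lhx2 117 and 310. Not every member was lower in IFE, as Cdh13 had 355 CPM there and 300 in HF. The list as a whole was not compared between IFE and HF. In K14 Epcam+ Lgr5 was at 68.5 CPM and Lhx2 at 69.7. Of the 18 members of that list, 3 were called higher than in IFE and none lower (median 0.19): Tbx1 (1.56, 0.97 with summed runs), Cd34 (1.10, 0.84 centred) and Runx1. Of 12 upper follicle and sebaceous genes, Pparg, the lipid-cell nuclear receptor (2.02), and the sterol acyltransferase gene Soat1 (1.52) were called higher and Defb6 lower (-1.60), around a median of -0.05 (0.07 centred).

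Marker genes of other cell types that a skin sort could hold were read in the same way. Their part in the results was not tested. Over all genes, 9.35% were called higher and 8.5% lower. No measured member was at 0 counts in either sample. Leukocyte genes summed 389 CPM in IFE and 484 in the tumour over 15 genes, with 3 called higher and 2 lower (median 0.61). Ptprc, which encodes CD45, had 38.8 and 99.9 CPM (log2 1.36, 0.96 with peaks within 10 kb), with 111 and 131 in the Lgr5 Epcam+ samples. Csf1r (1.14, 0.40 with summed runs) and Cd68 (1.06, 0.95 with loess scaling), of macrophages, were also higher, and Adgre1, the macrophage F4/80 gene, was lower (44.1 and 6.11 CPM, -2.83), as was the lymphocyte gene Cd3g (-1.42). Langerhans cell genes summed 318 and 484 CPM, with 3 of 10 called higher and 1 lower (median -0.07, 0.03 within 10 kb), and the defining gene Cd207 had 8.80 and 8.25 CPM. Endothelial genes summed 699 and 851 CPM, with 3 of 12 higher and 2 lower (median 0.28). Tie1 (1.54) and Cdh5 (1.45) were higher, Pecam1, which encodes CD31, was at 178 and 192 CPM (0.11), and Sox17 was lower (-1.18, -0.48 centred). Fibroblast and pericyte genes summed 569 and 673 CPM, with 2 of 12 higher and 1 lower (median 0.38). Twist2 and Pdgfrb (1.11, 0.59 with summed runs) were higher, Dpt lower (-1.20), and Pdgfra, which encodes CD140a, was at 68.7 and 81.6 CPM (0.25). Of 11 melanocyte and Schwann cell genes Tyrp1 was called lower (-1.19, list median -0.20, 0.15 within 10 kb), and of 8 Merkel cell genes Krt20 (-1.09, -0.95 in the paired-end run alone, list median 0.03, -0.19 with summed runs). No housekeeping gene of 15 was called (median -0.38). In bulk samples a different share of cells and a different openness per cell cannot be told apart.

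Ranked by log2 ratio among called genes of above-median level with at least 2 peaks, the leading genes outside the lists were mixed. Predicted (Gm) and Rik names were left out. Pla1a, a phospholipase, had 17.6 CPM over 13 peaks in IFE and 154 in the tumour (log2 3.12 [2.94, 3.33]), with 277 and 154 in the Lgr5 Epcam+ samples and 26.6 in HF. Tigit, an immune receptor of lymphocytes, had 13.5 and 104 CPM (2.93). The receptor genes Klrc1 (2.81), Klrg1 (2.57) and Clec12a (2.52), known from natural killer, lymphoid and myeloid cells, lie in the shifted stretch of chromosome 6 and centred on it were at 2.17, 1.92 and 1.88. Dynap (2.61), Siglec15 (2.55), Zfp804a (2.47) and Il1rapl2 (2.42) completed the higher genes. The lower genes were Il22ra2, the soluble decoy receptor of IL-22 (138 and 17.9 CPM, -2.94), the hair keratin-associated gene Krtap11-1 (-2.80), Zscan18 (-2.70), the chemokine scavenger receptor Ackr4 (-2.62), Acer1, the alkaline ceramidase of differentiated epidermis (-2.52), and Zp3r (-2.46).

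**Figure D5:**
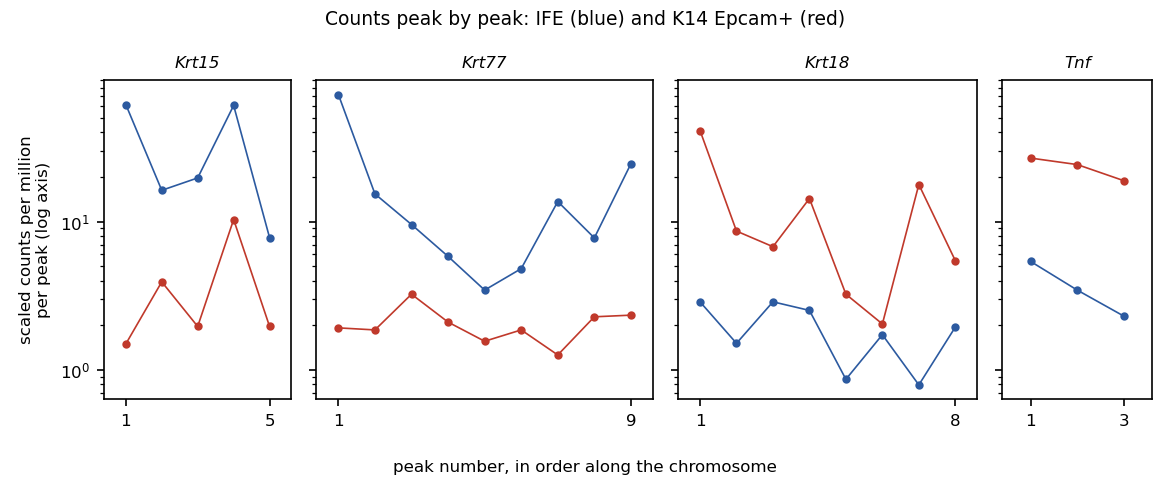
CPM (log axis) at each peak of 4 genes in order along the chromosome (x axis, peak number), with IFE in blue and K14 Epcam+ in red. Lines join peaks for the eye alone. All 5 peaks of Krt15 and all 9 of Krt77 are lower in the tumour, and all 8 of Krt18 and all 3 of Tnf are higher.

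Single peaks differed by more than the genes they were assigned to. Inside Atxn10, chr15:85346835-85347878 had 0.72 CPM in IFE and 31.2 in the tumour (log2 5.21 [4.55, 6.51]), with 45.9 and 28.0 in the Lgr5 Epcam+ samples and 2.64 in HF. Inside Etv6, chr6:134082116-134083250 had 1.62 and 42.2 CPM (4.65), and inside Eps8, which encodes an Egf receptor substrate, chr6:137582067-137583117 had 1.87 and 47.7 (4.63). A peak 18279 bp from Lpp, chr16:25010857-25011933, had 1.15 and 32.1 CPM (4.65). Among the lower, a peak inside Ppargc1b had 24.7 CPM in IFE and 0.24 in the tumour (-6.07), and one 7278 bp from Bpnt2, chr4:4800584-4801675, 27.3 and 0.50 (-5.61). The peak inside Il22ra2, chr10:19627341-19628417, had 43.2 and 1.11 CPM (-5.20). These were low in the Lgr5 Epcam+ samples as well, at 0.75 to 2.55 CPM. A peak inside Muc3, chr5:137151971-137153038, held 256 counts in IFE and 2 in K14 Epcam+ (9.20 and 0.06 CPM, -6.23 [-10.35, -5.43]). There the Lgr5 Epcam+ samples had 6.72 and 5.40 CPM and HF 10.6, so the low value was found in this tumour and in neither of those.

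Read against the Lgr5 Epcam+ tumours, which share no sample with this comparison, this tumour shared peak calls in both directions. Of 13078 peaks higher in K14 Epcam+ that were tested in all, 5748 were also called higher in both Lgr5 Epcam+ samples over HF. That is 44.0% of the K14 list and 63.7% of the 9019 peaks of the other, where such calls make up 5.1% of all peaks. Of 10491 lower peaks, 2083 were shared, 19.9% of this list and 30.3% of the 6873 of the other, against 3.88% of all peaks. Among genes, 808 higher (47.7% of this list, 52.3% of the other) and 424 lower (27.6% and 50.5%) were shared, where such calls in the other make up 8.53% and 4.63% of all genes. No test of the difference between these shares was made, and the normal samples themselves differ (Krt1 had 102 CPM in IFE and 21.8 in HF). Calls in opposite directions were few, with 7 peaks and 8 genes.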

How the data were processed

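Chromatin accessibility was measured by ATAC-seq (a Nextera kit, per the labels' protocols) in sorted skin and tumour cells. The authors deposited raw counts per peak for each run over 1 shared list of 177240 peaks. Per the submitters' processing notes, Bowtie2, HOMER, bedtools and HTSeq were used on mm10. The sources used here do not give versions, duplicate removal or peak calling. No count was left out beyond reads that HTSeq gave to no peak, as outside peaks, ambiguous, too low in quality or not aligned.

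Each peak was given to the closest protein-coding gene, up to 50 kb from its span (RefSeq, GRCm38.p6; 146665 peaks, 82.8%). TMM factors came from edgeR 4.0.16 (R 4.3.3) over 6 samples and peaks of chromosomes 1 to 14. Peaks and genes with a mean under 10 counts over the compared samples were left out, and ratios used a prior count of 2. No p-value was computed, as each side holds 1 sample. Alternatives were total-count, DESeq2 1.42.0 and loess (limma 3.58.1) scaling, other runs, prior counts, filters, limits and distances, and centring on 10 Mb windows.

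The comparison, the 32 gene lists and the rules for naming genes were chosen with earlier results of these data known. Genes named are, in each list, up to 6 called members, by size of the log2 ratio, and up to 4 not called. A fixed set of keratinocyte, sorting and tumour genes was added. So were the 12 highest and 12 lowest called genes of above-median level with at least 2 peaks, leaving out Gm and Rik names. Peaks were chosen by size among the 10 highest and 10 lowest, 1 a gene. Of 555 list symbols 549 were measured; Lce1a1, Stfa1, Aurka, Fcer1g, Lyz2 and Tyr were not. Klk7, Krt4 and Krt7, the few members called in their direction, and Cldn8 were named after their values were seen. So were Flg2, Dlk2, Col7a1, Foxm1, Cdkn1b and Ccnd2, which mark the range of those not called. An allele of the tumour model and 2 genes of the lists are not reported here.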

Additional observations from a re-analysis of the deposited data

Results flagged for a closer look

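In 8 genes the direction in K14 Epcam+ against IFE was opposite to that in both Lgr5 Epcam+ samples against HF, with a call on each side; the difference was not tested. Il1f8, an interleukin-36 gene of keratinocytes, was lower here (log2 -2.15, from 6.97 to 1.52 CPM) and higher there (2.21 and 2.30). The other 7 were higher here and lower there. Dpyd, a pyrimidine-degrading enzyme, was at 1.14 on 29 peaks, from 57.0 to 126 CPM, against -1.09 and -1.11. Dcstamp, a fusion protein of osteoclasts and dendritic cells, was at 1.96 on 4 peaks, against -1.87 and -1.94, and Gk2 was at 1.07 on 4 peaks. The normal samples themselves differed at some of these genes. HF had 2.07 CPM for Il1f8, 144 for Dpyd and 17.8 for Dcstamp, against 6.97, 57.0 and 4.96 in IFE. For Gk2 they were closer, at 8.52 in HF and 7.36 in IFE. The predicted or repeat-family genes 5730507C01Rik (3.18), Speer3 (2.76) and Gm21933 (2.44), and Mrgprb13 (2.54), had 1 to 4 peaks each and at most 2.41 CPM in IFE.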

How the results depend on the processing

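The counts of peaks followed the limit: a log2 ratio of 1 (0.5 in each run) called 37403 higher and 33742 lower, and a limit of 3 (1.5 in each run) 2873 and 2337. Under the other alternatives no count of peaks or genes moved by over 1.5 times, but the balance of higher and lower calls turned. Higher peaks outnumbered lower ones (13081 and 10497), while lower ones led with loess scaling (10359 and 12245) and summed runs (11447 and 11773). Higher genes led narrowly (1694 and 1539), and lower ones led with DESeq2 size factors (1620 and 1707), loess (1401 and 1609) and summed runs (1466 and 2105). Of 128 called genes named in the lists or by size, total-count scaling kept 127, DESeq2 size factors 123, loess 115, summed runs 114, the paired-end run alone 126, window centring 110, and peaks within 10 kb 115 of the 125 with a value. A value without the call stands beside each of the 128 named above that lost it. Klk7, Krt4, Krt7 and Cldn8 were not among the 128, so how far their calls hold was not checked in this way. List medians near 0 changed sign under at least 1 alternative in 9 lists. No paired analysis was possible because each group compared holds 1 sample. Depth limits peaks under 1 CPM in IFE, such as that of Fosl1, whose interval runs from 3.98 to 5.95.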
